A study of Homo sapiens with 4 samples.

Results

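The 80 genes described here encode proteins of the cytosolic ribosome, the particle that translates messenger RNA in the cytoplasm. They were taken from the array by name: symbols of the large-subunit series (RPL), the small-subunit series (RPS) and the stalk proteins RPLP0, RPLP1 and RPLP2. Of 43317 gene names on the array, 80 met this rule, 46 of the large subunit, 31 of the small subunit and 3 of the stalk. RPL10 and RPSA are not analysed here. The 80 genes had 163 probes, and for each gene the probe used is the one whose log2 signal, averaged over the 4 arrays, was highest.

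RNA was measured in HCT116, an established colorectal cancer line, and in A549, an established lung cancer line. Cells of each line were transfected with the microRNA miR-891b or with NC1, an RNA that serves as negative control, in both cases with the lipid reagent Dharmafect1. The series concerns PSAT1, an enzyme of serine synthesis, and vesicle release by cancer cells. The design thus has 4 groups, control and miR-891b cells in either line, with 1 array apiece, labelled with Cy3 from 100 ng of total RNA. The spread between cultures was therefore not measured, no p-value can be given within a line, and a difference counts as called when it reaches 2-fold, with no test. Time after transfection and dose are not given in the sources used here.

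Ribosomal protein genes are among the most highly expressed genes of growing cells, and their products are needed in equal numbers, since most of them occur once in each ribosome. Their mRNAs carry a terminal oligopyrimidine (TOP) tract, an unbroken run of C and T that begins with a C at the transcription start. Through this tract the mTOR kinase and the RNA-binding protein LARP1 control together how well these mRNAs are translated and how stable they are.

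The transfected microRNA and the start sites of several members are shown because the first is the agent of the study and the second carry the sequence mark of the family. The mature microRNA comes from chrX:146001100-146001121 on the minus strand of GRCh38.p14 (RefSeq), and its capitals are the seed, bases 2 to 8, which pairs with target mRNAs.
miR-891b: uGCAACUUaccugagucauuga
The DNA match to this seed, AAGTTGC, was in 0 of the 163 member probes, against 229 of 58201 probes (0.393%), read on the strand of the probe as the array design gives it. Probes are 60 bases long, so this says only that those letters are not in these probes.

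For 63 of the 80 members a RefSeq start site (GRCh38.p14) was found. The windows below hold 15 bases before the start and 15 from it on, 5′ to 3′ on the strand of the gene, with the C or T run that begins at the start in capitals. The first group is of genes at least 2-fold lower with miR-891b in A549.
RPS3A (chr4:151099613-151099642, plus strand): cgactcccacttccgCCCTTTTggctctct
RPS3 (chr11:75399503-75399532, plus strand): gcccgcgagccacttCCTTTCCTTTCagcg
RPL18 (chr19:48619164-48619193, minus strand): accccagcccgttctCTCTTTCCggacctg
RPL29 (chr3:51995881-51995910, minus strand): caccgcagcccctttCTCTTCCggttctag
RPS6 (chr9:19380222-19380251, minus strand): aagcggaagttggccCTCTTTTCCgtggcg
RPL36 (chr19:5690280-5690309, plus strand): ccgcgcggcgccagcCCTTCCgccacggcc
The next group is of genes with small changes in A549.
RPLP0 (chr12:120201097-120201126, minus strand): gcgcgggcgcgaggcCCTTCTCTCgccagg
RPLP2 (chr11:809952-809981, plus strand): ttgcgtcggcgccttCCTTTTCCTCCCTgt
RPS19 (chr19:41860240-41860269, plus strand): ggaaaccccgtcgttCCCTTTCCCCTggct
The last group has no such run at the start that RefSeq gives; RPL32 was 2-fold lower in A549, and RPS27L is a paralog.
RPL32 (chr3:12841551-12841580, minus strand): gggttacgacccatcagcccttgcgcgcca
RPS27L (chr15:63157463-63157492, minus strand): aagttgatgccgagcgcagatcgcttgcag

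A run of at least 5 bases of C or T that began with C at the start was found in 44 of the 63 members (69.8%), against 1404 of 27305 genes of the RefSeq table (5.14%) and 6 of 68 mitochondrial ribosomal protein genes (8.82%). Median changes of members with and without a run lay close together, and their order differed between the lines. In A549 the median log2 change was -0.75 for the 44 members with a run and -0.82 for the 19 without. In HCT116 these medians were -0.24 and -0.18. At least 2-fold lower in A549 were 18.2% of members with a run and 10.5% without, against 5.57% of all measured genes. Among other genes at a mean level of 6 or more (levels are defined below), medians with and without a run were -0.38 and -0.21 in A549. In HCT116 they were -0.14 and -0.05. Whether the run goes with the change was not tested. The start RefSeq lists can differ from the start used in these cells, so a missing run here is a statement about the listed base only.

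All values below are levels, that is, the processed signal on a log2 scale relative to the 75th percentile of its array, and a change is the level with miR-891b minus the level with NC1 in the same line. Of the 80 members, 79 were well above background on both HCT116 arrays and 80 on both A549 arrays. The exception, RPL39L, was dim on both HCT116 arrays. No member was saturated. Ribosomal protein genes have many processed pseudogenes of nearly the same sequence, which a probe of 60 bases may not tell from the gene. Wherever 4 values are listed, they follow the order HCT116 control, HCT116 with miR-891b, A549 control and A549 with miR-891b, where control means NC1. The median processed signal of the members was 47818, 40856, 39606 and 23138. At the 75th percentile of the arrays the processed signal was 54.9, 57.0, 74.8 and 74.2. It was close within each line but higher in A549, so differences in level between the lines hold a part that comes from this scaling. RPL15, for example, had a higher processed signal on A549 NC1 (40425) than on HCT116 NC1 (35287), but a lower level. Members held 14.6%, 13.2%, 11.7% and 8.81% of the summed signal of 1 probe per gene. Both HCT116 arrays were on 1 slide and both A549 arrays on another, so slide and line cannot be told apart. The level of an RNA in bulk cells does not tell fewer expressing cells from less RNA per cell.

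The labelled lines were checked against markers. Of 6 genes listed for A549, AKR1C1, AKR1B10, ALDH3A1, NQO1 and KRT81 were higher in A549 by 2.36 (NQO1) to 12.17 (AKR1B10) on log2 with NC1, and ALDH1A1 was well above background in A549 only. Of 7 genes listed for HCT116, CDX2, EPCAM, CLDN3 and CLDN7 were higher there by 3.13 to 6.75, CDH1 hardly differed (0.24 higher in HCT116), GPA33 was dim on all 4 arrays, and LGALS4 was dim in HCT116 and higher in A549. AKR1B10 differed on HCT116 miR-891b, at a level of 2.18 against -2.29 with NC1, while ALDH3A1, NQO1 and KRT81 differed there by -0.51 to -0.28 and AKR1C1 and ALDH1A1 were not measured on both HCT116 arrays. Of 7 fibroblast genes, LUM, THY1, COL1A1 and PDGFRB were above background in A549, the last pair also in HCT116, and COL1A2, COL3A1 and DCN were so on no array. LUM was 2.14 higher and THY1 1.04 lower with miR-891b in A549. Whether other cells had a part in the results below was not tested.

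In A549, nearly all ribosomal protein mRNAs were lower with miR-891b. The median change of the 80 members was -0.76 on log2 (SD over members 0.32), or 59.0% of the NC1 level, and the changes ran from -1.52 (RPS3A) to 0.17 (RPLP2). Of the 80, 78 were below 0, against 55.6% of the 21337 genes measured in this line, whose median was -0.06. At least 2-fold lower were 15 members, against 5.57% of all measured genes, and 0 were 2-fold higher, against 4.01%. Bright genes were lower in general on this comparison: 967 other genes with a mean level of 6 or more had a median of -0.26, with 74.7% below 0 and 8.48% at least 2-fold lower. That group was chosen after its values were seen, as a description of genes about as bright as the members.

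Across the threshold the members formed an unbroken series. Just inside it were RPL8 at -1.03, RPL7A at -1.003 and RPL32 at -1.002, and just outside were RPL35 at -0.98, RPS15A at -0.98 and RPS4X at -0.96. At 1.5-fold, 54 members were lower, against 15.3% of all measured genes. The count of 15 depends on scaling: quantile normalization, cyclic loess, and normexp with quantile normalization each left 3, and these were RPS3A, RPS3 and RPL39L in each of the 3 settings. Over all measured genes 4.90%, 4.22% and 2.01% were at least 2-fold lower in these settings, so a count of 3 among 80 no longer stands clear of that background.

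**Figure D1:**
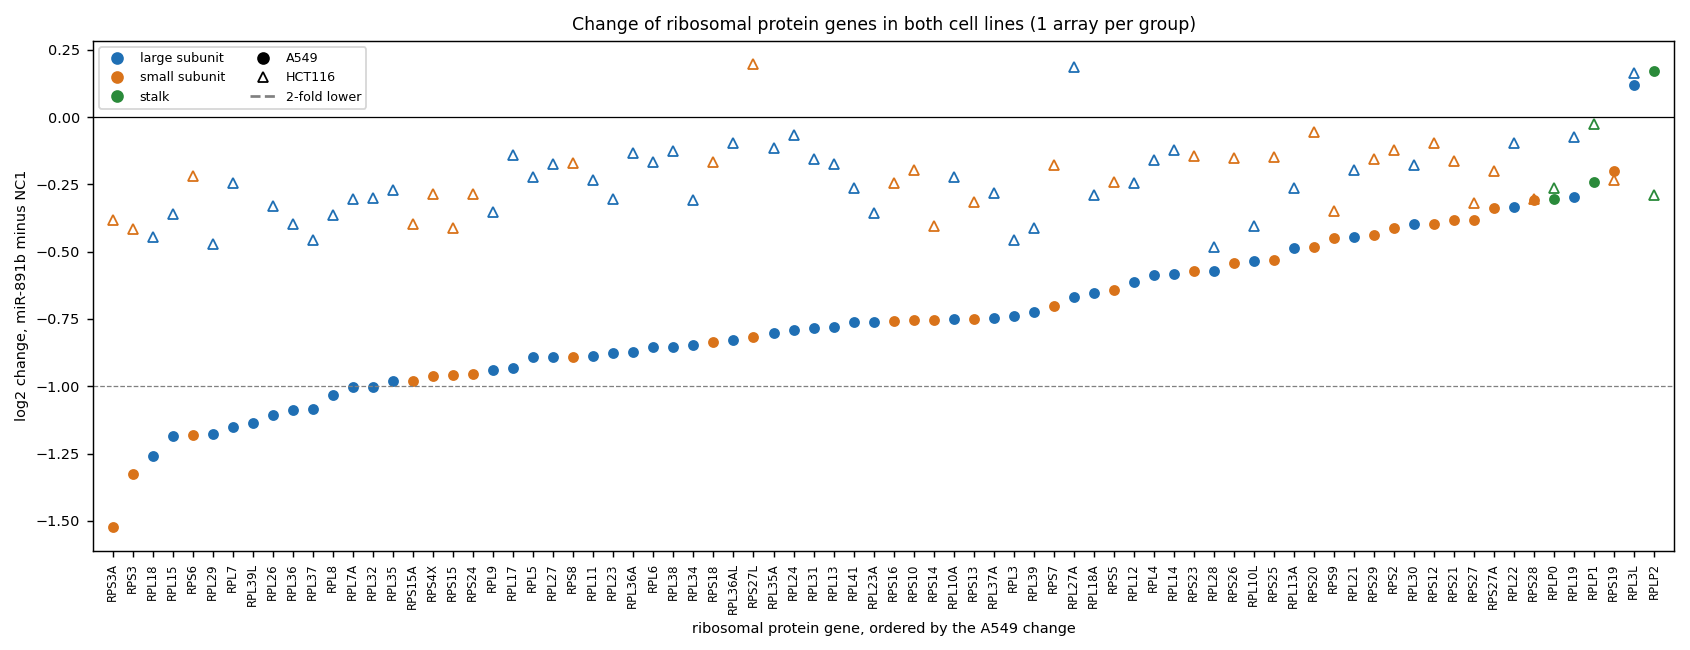
Log2 change (miR-891b minus NC1) of 78 ribosomal protein genes, ordered by its change in A549, with filled circles for A549, open triangles for HCT116 and colour for the subunit; the dashed line is 2-fold lower and each group is 1 array. A549 circles run from -1.52 to 0.17 and 14 lie below the dashed line, while no HCT116 triangle does.

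Among small-subunit genes in A549, all 31 were below 0, with a median change of -0.70, and 4 were at least 2-fold lower. The level of RPS3A, a structural protein of the small subunit read by a probe at chr4:152024154-152024213 (hg19), was 9.80 in HCT116 control cells and 9.42 with miR-891b, and 8.75 in A549 control cells and 7.22 with miR-891b. The A549 miR-891b array was the lowest of the 4, and the A549 change of -1.52 was the lowest among the members. Its 5 probes with mean levels above 6 changed by -1.62 to -1.41 in A549 and by -0.43 to -0.28 in HCT116, so the size does not rest on the probe used. Another probe, at a mean level of 0.31, changed by -0.52 in A549.

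RPS3, which lines the channel where mRNA enters the ribosome and whose probe lies at chr11:75111802-75111861 (hg19), had levels of 6.90, 6.48, 6.59 and 5.26 on the arrays in the same order. The A549 miR-891b level was again well below the other 3, at 39.9% of A549 NC1. RPS6, the substrate of the S6 kinases downstream of mTOR, had levels of 10.19, 9.97, 9.68 and 8.50, with a change of -1.18 in A549 and -0.22 in HCT116. For RPS6, too, A549 miR-891b was the lowest array. RPS6 lay in an area of stray signal on HCT116 miR-891b, where 10.5% of the neighbouring spots that no other array lit up were above background. In all, 13 members lay in such areas on that array. Among them were RPL18 (11.8%), RPL15 (24.7%), RPL7 (10.3%), RPL3 (26.2%), RPL22 (21.5%), RPL30 (13.5%), RPS26 (13.6%) and RPS27 (14.1%). Without probes in such areas, RPL18 had no probe left, and RPS6 and RPL15 were read by their other probes, at -0.96 and -0.40 in A549. These genes were then no longer among those at least 2-fold lower in A549, while RPL22 was, by its other probe. On the A549 arrays the probes first used for RPS6, RPL15 and RPL18 had stray shares of only 2.61% to 3.87%. Their loss from the A549 count thus follows a change of probe, not stray signal on an A549 array.

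Other small-subunit genes moved little. RPS19, the gene most often mutated in Diamond-Blackfan anaemia, had levels of 10.02, 9.79, 9.99 and 9.79, with changes of -0.23 in HCT116 and -0.20 in A549. Its levels in the 2 lines overlapped. RPS27A, made as a fusion with ubiquitin, had levels of 8.66, 8.46, 8.42 and 8.09. The A549 changes of RPS19, RPS27A and RPS28, a protein near the exit of the mRNA channel, were all between -0.34 and -0.20, and the sign of each turned positive under 3 of 11 settings. RPS26, at the mRNA exit as well, had levels of 10.35, 10.20, 9.68 and 9.14, and its change of -0.54 in A549 was smaller in size than the median of the members.

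In the large subunit, 45 of 46 genes were below 0 in A549, with a median change of -0.82, and 11 were at least 2-fold lower. RPL18 had levels of 8.94, 8.49, 8.69 and 7.44, and RPL29, which also occurs as a heparin-binding protein at the cell surface, had 9.05, 8.58, 7.78 and 6.60. Both genes were lower with miR-891b in each line, by 0.45 and 0.47 in HCT116 and by 1.26 and 1.18 in A549. The 4 probes of RPL29 changed by -1.33 to -1.18 in A549 and by -0.49 to -0.47 in HCT116. RPL36 had levels of 8.63, 8.23, 7.02 and 5.94, lower in A549 than in HCT116 and lower with miR-891b in both.

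RPL15, a Diamond-Blackfan gene, had levels of 9.33, 8.97, 9.08 and 7.89. Its other probe changed by -0.40 in A549, against -1.18 for the probe used, so the size for this gene rests on the probe. RPL26, at the exit of the tunnel for the new protein, had levels of 9.47, 9.15, 9.01 and 7.91. Its other probe changed by -0.56 in A549 against -1.11, and only the probe used lay past 2-fold. RPL7 had levels of 9.28, 9.04, 8.60 and 7.44, and its 3 probes changed by -1.29 to -1.15 in A549. RPL37 had levels of 9.22, 8.77, 8.87 and 7.78, RPL8 had 9.91, 9.55, 9.22 and 8.19, and RPL7A had 10.06, 9.75, 9.28 and 8.27. RPL32 had 9.37, 9.07, 9.0 and 7.998. In RPL7, RPL37, RPL8, RPL7A and RPL32, A549 miR-891b was the lowest array. The called large-subunit genes also include the paralog RPL39L, at -1.14, described below.

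RPL5 and RPL11, which outside the ribosome bind and inhibit the ubiquitin ligase MDM2, differed by the same amount. RPL5 had levels of 9.77, 9.54, 8.65 and 7.75, and RPL11 had 9.39, 9.16, 8.49 and 7.60. Both changed by -0.89 in A549, below 2-fold. Beside them, MDM2 changed by -0.61 and CDKN1A, an inhibitor of the cell cycle, by -0.27 in A549. Among large-subunit genes at a mean level of 6 or more, RPL19 was the least changed in A549, with levels of 10.12, 10.05, 9.75 and 9.46 and a change of -0.30, which was above 0 in 1 of 11 settings. RPL28 had the lowest change of all members in HCT116, with levels of 9.36, 8.88, 8.70 and 8.13.

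The stalk genes showed small differences. RPLP0 anchors the stalk, and RPLP1 and RPLP2 form the dimers on it that recruit the GTPases of translation. RPLP0 had levels of 10.27, 10.003, 9.74 and 9.44. RPLP1 had 10.59, 10.57, 10.21 and 9.97, and RPLP2 had 10.33, 10.04, 8.94 and 9.11. In A549 their changes were -0.30, -0.24 and 0.17, and none reached 2-fold. RPLP2 was above 0 in A549 in all 10 settings that gave it a value, from 0.17 to 0.60, while RPLP0 and RPLP1 were below 0 in 9 and 10 of 11. RPLP2 has 1 probe, at chr11:812818-812877 (hg19), in an area of stray signal on HCT116 NC1, where 12.9% of the neighbouring spots that were dim elsewhere were above background.

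In HCT116 the same direction was seen at a smaller size. The median change of the 79 members measured was -0.23 on log2 (SD over members 0.14), or 85.1% of the NC1 level, with a range from -0.48 (RPL28) to 0.20 (RPS27L). Of the 79, 76 were below 0, against 55.5% of the 19104 genes measured, whose median was -0.04, and against 66.5% of 966 other bright genes, whose median was -0.09. At least 2-fold lower were 0 members, against 0.843% of all measured genes and 0.104% of the bright ones, and 2-fold higher were 0, against 1.16%. At 1.5-fold, 0 members were lower, against 5.65% of all measured genes. The subunit medians were close, at -0.25 for the large subunit, -0.21 for the small one and -0.26 for the stalk.

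The members above 0 in HCT116 were RPS27L, RPL27A and RPL3L. RPL27A, a large-subunit protein, has a single probe of low signal, with levels of -0.62, -0.43, -2.01 and -2.68. Its change was 0.19 in HCT116 and -0.67 in A549. After RPL28, the lowest in HCT116 were RPL29 at -0.47, RPL37 at -0.46 and RPL3, a protein near the catalytic centre, at -0.46. RPL3 had levels of 9.91, 9.45, 8.66 and 7.92, lower with miR-891b in each line.

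**Figure D2:**
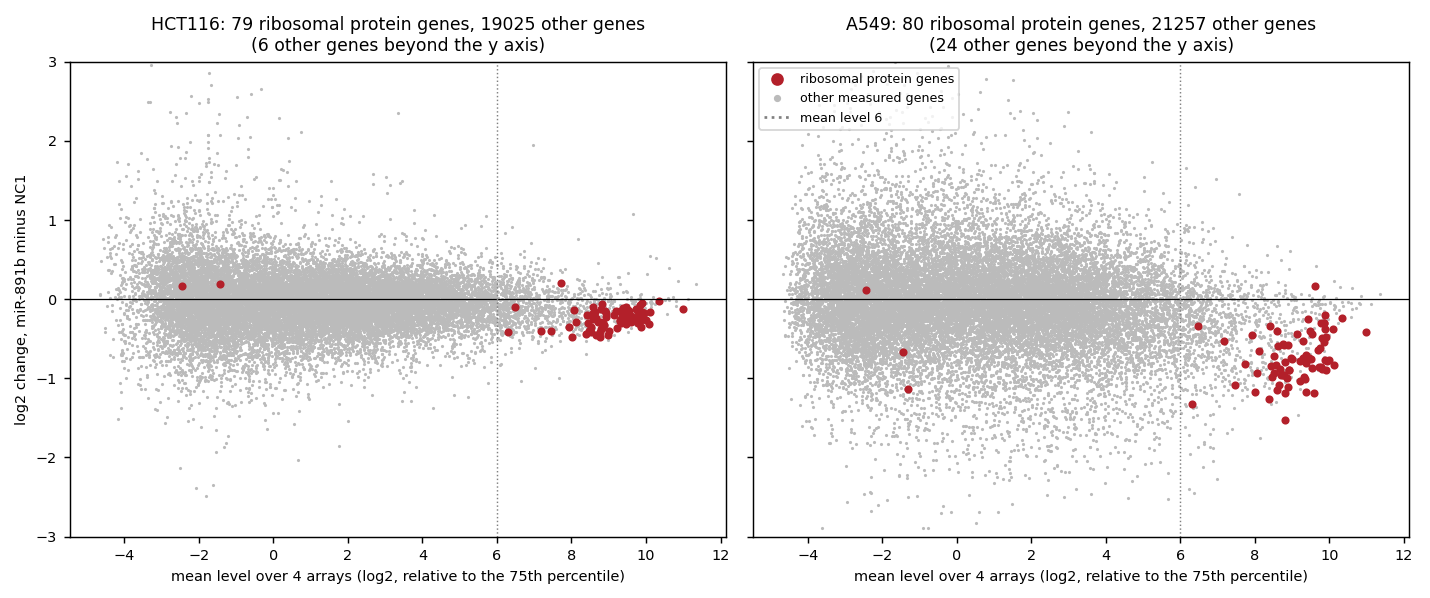
Log2 change (miR-891b minus NC1, y axis) against the mean level over the 4 arrays (log2 relative to the 75th percentile, x axis) of each measured gene, with members in red, other genes in grey and a dotted line at a mean level of 6; each group is 1 array. Members gather at the right, below 0 in 76 of 79 cases in HCT116 and 78 of 80 in A549, where the median lies at -0.76 against -0.26 for other genes right of the dotted line.

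Differences between repeated spots give the error within an array. Over 276 probes with at least 5 spots in HCT116 and 287 in A549, the median SD of the log2 change between spots of a probe was 0.061 and 0.071. RPL30, the member with 10 spots, changed by -0.18 ± 0.02 (SD over 10 spots) in HCT116 and by -0.40 ± 0.05 in A549. Over all measured probes of the members, 150 of 159 were below 0 in HCT116 and 157 of 160 in A549. Of 45 genes with at least 2 probes, 39 had all measured ones below 0 in HCT116, with probes of both signs in the other 6, and 44 had all below 0 in A549. The A549 exception was RPS20, whose other probe, at a mean level of -2.47, changed by 1.17 against -0.48 for the probe used. This error covers spots and probes on the same arrays, not separate transfections.

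The 2 lines were compared member by member. Of 79 members measured in both, 75 were below 0 in both, against 33.8% of 18062 genes. The A549 change was below the HCT116 change in 77 of 79 members, against 54.2% of all genes, with a median difference of -0.53. The exceptions were RPLP2 and RPS19. With 4 arrays no residual degree of freedom remains to test whether the lines differ, so no p is given. Across the 79 members the changes in the 2 lines had a Pearson correlation of 0.40 and a Spearman correlation of 0.39, given as a description, since members share the same 4 arrays.

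Across both lines, limma's additive model (line and treatment, 1 residual degree of freedom) was the only test of miR-891b. With Benjamini-Hochberg adjustment it called 0 of 22714 genes (0%) and 0 of 80 members. At an unadjusted p under 0.05 were 1211 genes (5.33%) and 3 members: RPL29 (-0.83 ± 0.29 SE), RPL18 (-0.85 ± 0.30) and RPL37 (-0.77 ± 0.28). Their adjusted p by limma was 0.793, the smallest among all genes, and they were lower in 2 of 2 lines. The estimates of 79 of 80 members were below 0, against 55.4% of all genes, with a median of -0.49 against -0.04. Without a filter on dim probes limma called 3 genes, none of them members. The decrease of the members with miR-891b was therefore not shown beyond the spread between the lines for any single gene.

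**Figure D3:**
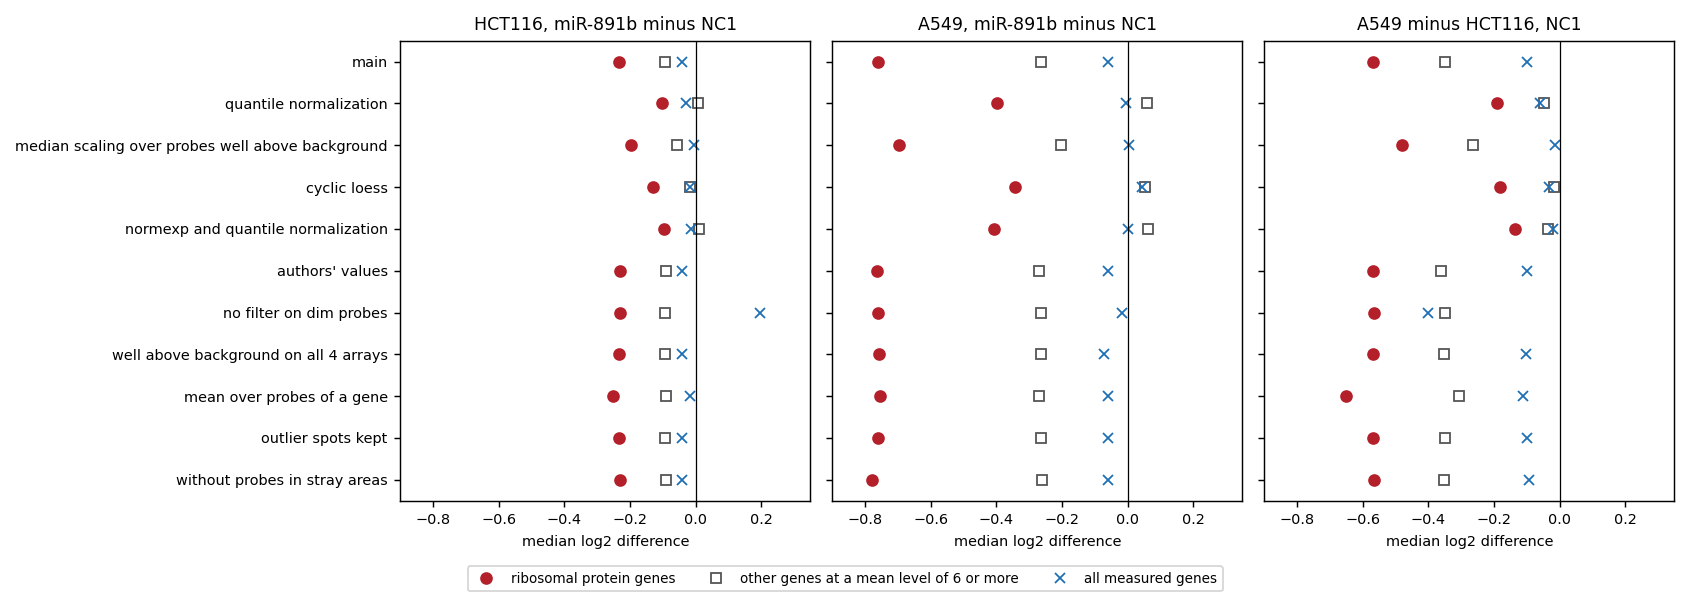
Median log2 difference of ribosomal protein genes (red circles), of other genes at a mean level of 6 or more (open squares) and of all measured genes (crosses) under 11 processing settings (the first row scales to the 75th percentile), for miR-891b minus NC1 in each line and for A549 minus HCT116 with NC1. The red circle lies left of both other marks in every row, and in A549 moves from -0.76 to -0.34 under cyclic loess.

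Scaling changed the size of the shift. With quantile normalization, cyclic loess, and normexp with quantile normalization the A549 median of the members was -0.40, -0.34 and -0.41, and that of the other bright genes was 0.06, 0.05 and 0.06. Cyclic loess moved the median of all genes in A549 from -0.06 to 0.04. The distance between members and other bright genes ran from -0.52 to -0.40 over the 11 settings in A549 and from -0.16 to -0.11 in HCT116. Members below 0 in A549 were 83.8% with loess, 88.8% with quantile normalization and 90% with normexp. In HCT116 these shares were 88.6%, 79.7% and 77.2%.

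Other genes of translation were read in the same way. For the lists that follow, the shares below 0 to compare were 55.6% of all measured genes and 74.7% of other bright genes in A549. In HCT116 they were 55.5% and 66.5%. In A549, 74 of 77 mitochondrial ribosomal protein genes, which serve the separate ribosomes of mitochondria, were below 0, with a median of -0.45. At least 2-fold lower were 4, against 5.57% of all measured genes, a background this count does not stand clear of. They were MRPL11 at -1.64, MRPS18B at -1.54, MRPL42 at -1.40 and MRPL52 at -1.19. In HCT116, 40 of the 77 were below 0 and the median was -0.004. Of 29 initiation factors, 27 were below 0 in A549 (median -0.33) and 17 in HCT116 (median -0.06), with none 2-fold lower. EIF5, which promotes GTP hydrolysis during start codon choice, was higher in both lines, by 0.63 in HCT116 and 0.71 in A549.

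All 10 genes of the elongation factor list were below 0 in A549 (median -0.57). The list also holds the kinase EEF2K and EEF1E1, a partner of the multi-tRNA synthetase complex. EEF1E1 was at least 2-fold lower at -1.10. In HCT116, 7 of 10 were below 0 (median -0.15). EEF2, the translocation factor, changed by -0.55 and -0.56 in HCT116 and A549. Of 18 other genes listed as having TOP mRNAs, 17 were below 0 in A549 (median -0.67) and 16 in HCT116 (median -0.21), with 0 past 2-fold. Of the 18, 7 were also in the lists of initiation or elongation factors, and the remaining 11 had medians of -0.68 and -0.21 in A549 and HCT116. GNB2L1, the ribosome-bound scaffold also called RACK1, changed by -0.90 in A549, and NAP1L1, a histone chaperone, by 0.07.

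Of 13 genes of the mTOR and LARP1 axis, 9 were below 0 in A549 (median -0.18) and 7 in HCT116 (median -0.02). LARP1 itself changed by -1.09 in A549, the only 1 of the 13 past 2-fold, and by -0.41 in HCT116. The 4 above 0 in A549 were RPTOR (0.63), EIF4EBP2 (0.50), AKT1S1 (0.48) and RPS6KB2 (0.05). Whether any gene of this axis had a part in the change of the members was not tested. Of 10 chaperones of ribosomal proteins, 6 were below 0 in A549 and 8 in HCT116, with medians of -0.02 and -0.10. PSAT1 changed by -1.58 in A549 and -0.81 in HCT116. These lists were compared by counts and medians alone, so no difference between a list and the members was tested.

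**Figure D4:**
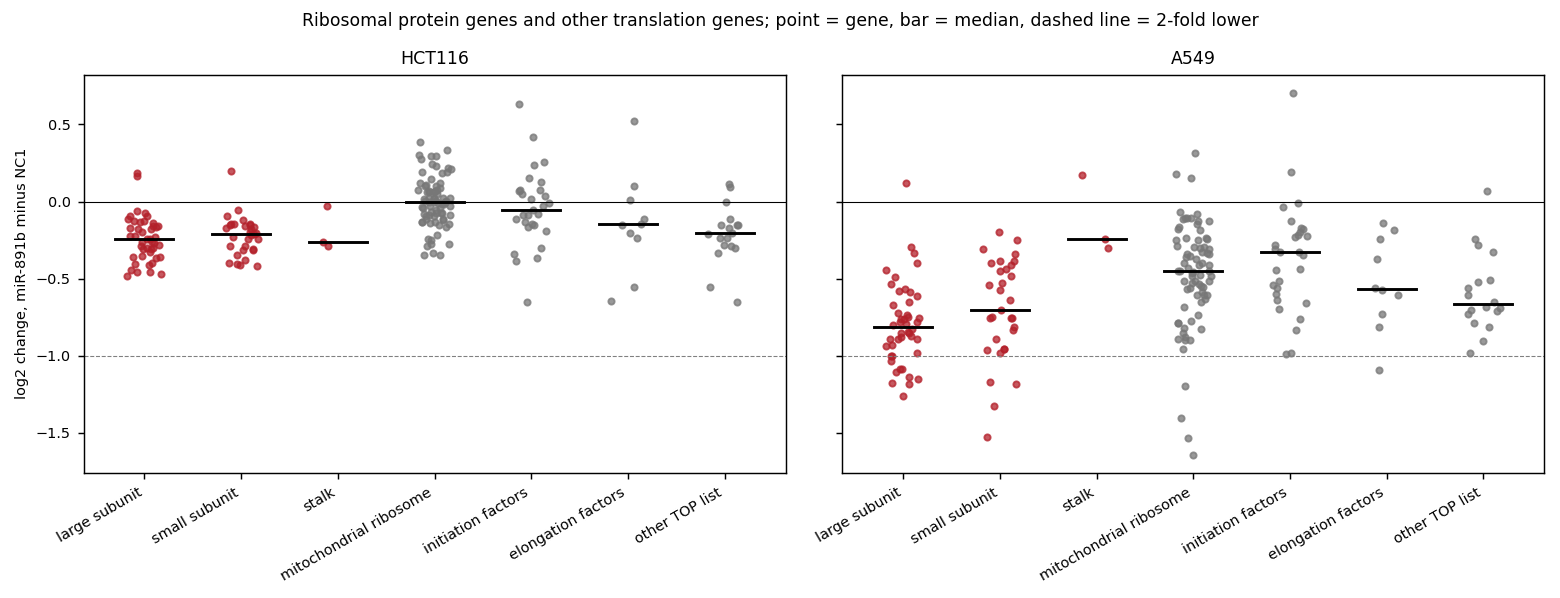
Log2 change (miR-891b minus NC1) of each gene of the large subunit, small subunit and stalk (red) and of other translation gene lists (grey), in HCT116 and A549; each point is a gene, the bar is the median, and the dashed line is 2-fold lower. The A549 medians are -0.82, -0.70 and -0.24 for the red groups and -0.45, -0.33, -0.57 and -0.67 for mitochondrial ribosomal proteins, initiation factors, elongation factors and other TOP genes.

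The paralogs are copies of ribosomal protein genes, some of them with restricted or regulated expression. RPL39L, the testis-enriched copy of RPL39 at the tunnel through which the new protein leaves, was not well above background on either HCT116 array and had levels in A549 of 3.16 with NC1 and 2.02 with miR-891b. For a bound, the HCT116 side was set at the lowest level of any probe marked well above background on that array. Against it A549 was 104-fold higher with NC1 and 35.7-fold higher with miR-891b. The mark is given per spot, so these bounds are approximate. RPL39 had levels of 8.78, 8.37, 8.83 and 8.11, so its lines overlapped.

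RPS27L, a copy of RPS27 read by a probe at chr15:63447866-63447925 (hg19), had levels of 7.38, 7.58, 8.38 and 7.56. Only A549 NC1 stood above the others. Its change was 0.20 in HCT116, above 0 in all 11 settings, and -0.82 in A549, below 0 in all 11. RPS27 had levels of 10.47, 10.15, 10.05 and 9.67. The changes of RPL36A and RPL36AL lay close together, at -0.13 and -0.10 in HCT116 and -0.87 and -0.83 in A549, from levels of 9.85, 9.72, 9.70 and 8.83 for the first and 8.86, 8.77, 8.74 and 7.91 for the second.

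RPL3L, a copy of RPL3 used in heart and skeletal muscle, gave a low signal, with levels of -2.40, -2.24, -2.63 and -2.51, and was above 0 in both lines at 0.16 and 0.12. RPL10L, the testis copy of RPL10, had levels of 7.30, 6.90, 7.53 and 6.995. RPL10 and RPL10L are near-identical in sequence, so the signal of this probe cannot be given to one of them with certainty. RPL22, which also binds RNA outside the ribosome, had levels of 6.82, 6.73, 6.36 and 6.03. Its copy RPL22L1, outside the name rule, had levels of 9.88, 9.92, 6.68 and 5.81, far lower in both A549 arrays. RPL26L1, likewise outside the rule, changed by -1.15 in A549 and -0.14 in HCT116.

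**Figure D5:**
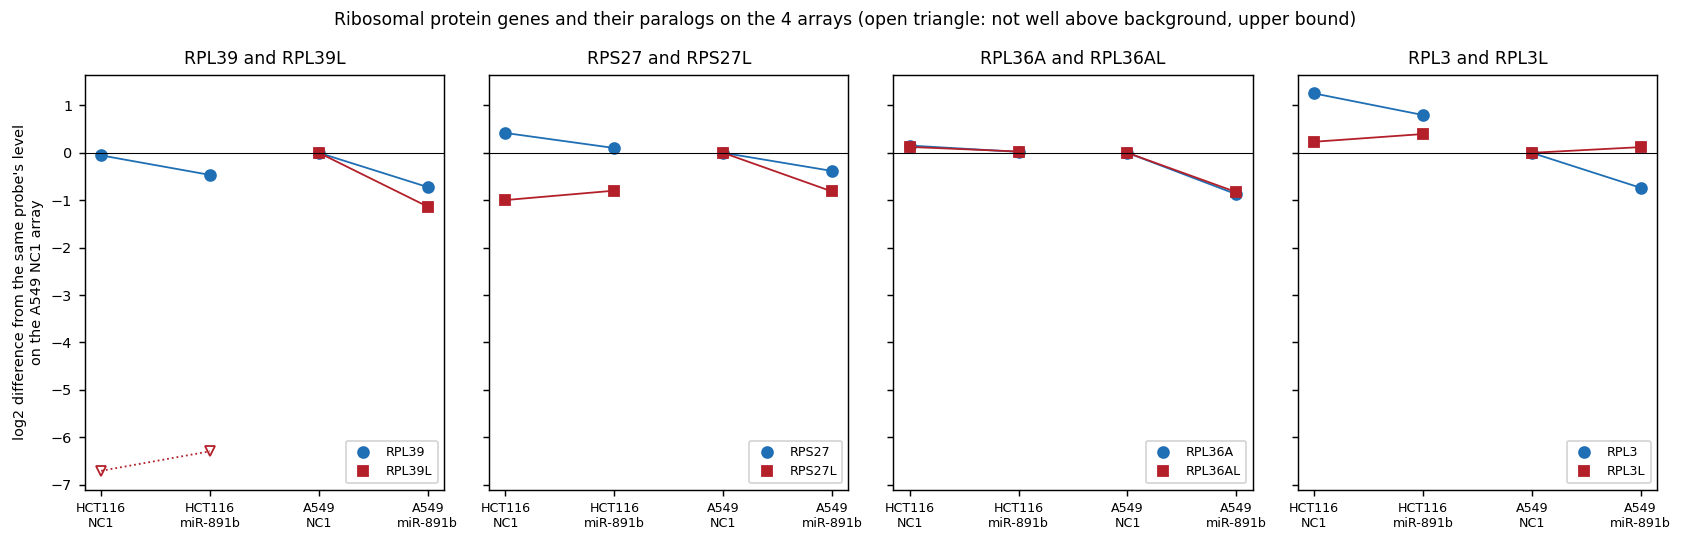
Log2 difference of each probe from its own level on the A549 NC1 array (y axis) over the 4 arrays, for 4 ribosomal protein genes (blue circles) and their paralogs (red squares). Open triangles are approximate upper bounds where the probe was not well above background, and each point is 1 array. RPL39L lies far lower in HCT116 only, RPS27L is 0.997 higher on A549 NC1 than on HCT116 NC1, and RPL36A and RPL36AL overlie each other.

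Between the lines with NC1, most members were lower in A549. The median difference (A549 minus HCT116) was -0.57 on log2 over 79 members, with 75 below 0, against a median of -0.10 over all genes, of which 55.0% were below 0, and -0.35 over other bright genes, of which 70.1% were below 0. At least 2-fold lower were 17 members, against 16.2% of all genes and 12.8% of other bright genes, shares not far from that of the members, and 0 were 2-fold higher, against 11.1%. With miR-891b the median was -1.14, and 77 of 79 were below 0, against 58.5% of all genes and 75.4% of other bright genes. There 49 members were at least 2-fold lower, against 20.7% and 26.2%, and 0 were 2-fold higher, against 11.4%. At least 2-fold lower on both treatments were 16 members, against 11.8%, and 2-fold higher on both were 0, against 7.62%. Of these 16, the 8 with the largest differences on NC1 were RPL36, RPL27A, RPS28, RPL34, RPL29, RPL12, RPL3 and RPL14, an order that holds for NC1 only. The line difference with NC1 depended on scaling. With quantile normalization, cyclic loess, and normexp with quantile normalization, 64.6%, 64.6% and 63.3% of members were below 0. At least 2-fold lower there were 4, 2 and 1 members, against 14.9%, 14.6% and 7.25% of all genes.

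RPS28 had levels of 10.62, 10.32, 9.26 and 8.95, and RPL12, at the base of the stalk, had 10.60, 10.36, 9.33 and 8.72. RPL34 had levels of 9.38, 9.08, 8.09 and 7.24, and RPL14 had 9.60, 9.47, 8.35 and 7.76. In these 4 genes both A549 arrays lay below both HCT116 arrays. Limma's line term called 30 of 80 members after Benjamini-Hochberg adjustment, 29 lower in A549. The other one, RPL39L, passed the filter on dim probes only through the A549 arrays, so its call as higher there is a description only. Over all genes it called 31.9%, of which 16.4% of all genes were lower and 15.5% higher. RPL36, for example, was lower by 1.95 ± 0.29 (SE) on log2, adjusted p = 0.0137 by limma, in 2 of 2 treatments. The count fell to 7 with quantile normalization, 8 with cyclic loess and 15 with normexp, while the share of all genes called was 30.3%, 31.6% and 22.0%. Line and slide cannot be told apart in this test.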

How the data were processed

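Total RNA of 4 samples, grouped by their titles, was hybridised to 1-colour Agilent arrays, 1 array in each group. Per the submitters' processing notes and the file headers, Feature Extraction 11.5.1.1 quantified the scans. The deposited scanner files hold intensity values (processed signal, background-subtracted by that software, not scaled between arrays) and, per the file headers, marks for spots that are outliers, saturated or well above background, with probe positions on hg19. The authors' deposited table holds log2 values, and the sources used here do not say how they were made. Set against the scanner files, they had the scale and centring used here: the median difference was at most 0.0076 on any array and no probe differed by over 0.11. Their column medians were -3.80, -3.60, -3.71 and -3.68. They served as an alternative. The number of value columns left unused because they belong to no sample was 0.

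Here, outlier spots were left out, repeated spots of a probe were averaged on the log2 scale, and each array's 75th percentile over gene probes was subtracted. A gene counted as measured in a line when both of that line's arrays had its probe well above background. Limma 3.58.1 (lmFit, eBayes, Benjamini-Hochberg) in R 4.3.3 fitted line and treatment to genes well above background on at least 2 arrays, and was tested on simulated data. Other values came from Python 3.11.15, numpy 2.4.6 and pandas 2.3.3, and figures from matplotlib 3.10.9. The precision is limited by the number of arrays. Nothing says that further cultures were made.

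Members, lists and tests were chosen with earlier results of these data known. Named with all values were 8 members at either end of the mean change over both lines, the 3 lowest and 3 highest in each line, those past 2-fold in a line, up to 8 past 2-fold between lines on both treatments, the stalk, paralogs, dim members, 6 members of known function (RPL5, RPL11, RPS6, RPS19, RPS26, RPS27A), and list genes past 2-fold. Some items that this rule selects are named neither in the text nor in the figure by gene, but stay in all counts and medians. Other list genes named were chosen after their values were seen. A spot lay in an area of stray signal if, among its neighbours within 10 rows and columns that no other array lit up, at least 10% were well above background. The alternatives were quantile normalization, median scaling, cyclic loess, normexp (offset 50) with quantile normalization, the authors' values, no filter on dim probes, all 4 arrays above background, the mean over probes, outlier spots kept, no probes in stray areas, and a threshold of 1.5-fold. Start sites and the microRNA came from RefSeq tables for GRCh38.p14.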

Additional observations from a re-analysis of the deposited data

Results flagged for a closer look

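In 3 members every array pair of one line moved opposite to that of the other line, with 1 pair of arrays per line, and whether the lines differ was not tested. RPL27A was 0.19 higher with miR-891b in HCT116 and changed by -0.67 in A549, from a probe of low signal. RPLP2 changed by -0.29 in HCT116 and by 0.17 in A549, from 1 probe that lay in an area of stray signal on HCT116 NC1. RPS27L changed by 0.20 in HCT116 and by -0.82 in A549, from 1 probe outside such areas. Each of the 3 kept its sign in both lines under every setting that gave it a value (10 for RPLP2, 11 for the others).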

How the results depend on the processing

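The members' medians and counts by size moved with settings that remove shifts tied to signal. For cyclic loess, normexp with quantile normalization, and quantile normalization, in that order, the member median change was -0.34, -0.41 and -0.40 in A549 and -0.13, -0.097 and -0.10 in HCT116, and the median difference between lines with NC1 was -0.18, -0.14 and -0.19. That difference was -0.48 with median scaling and -0.65 with the mean over probes. In the same order, members at least 2-fold lower in A549 were 3, 3 and 3 (all genes 4.22%, 2.01% and 4.90%), members past 2-fold between lines 3, 2 and 5 (all genes 14.6%, 7.25% and 14.9% lower alone), and members called by limma's line term 8, 15 and 7 (all genes 31.6%, 22.0% and 30.3%). At 1.5-fold, 54 members were lower in A549 (all genes 15.3%) and 39 differed between lines, 38 of them lower in A549 (all genes 28.5%). Without probes in stray areas 1 member, RPS20, was 2-fold higher in A549, by its low-signal probe, the only one left there. With no filter on dim probes limma called 3 genes for miR-891b, with 0 under the other settings. None of the members' medians reversed, though that of other bright genes in A549 did in the 3 settings named first, to 0.05, 0.06 and 0.06, and the small median of all genes rose to 0.04 with cyclic loess. Single-member values were followed for members picked by the naming rule (79 pairs of gene and line), which takes in the extremes, and not for all members. Over the other settings 532 of these values moved by less than 1 SD of the members and 253 by more. The cause was not tested. The additive model compares miR-891b with NC1 within each line. No pairing beyond that was possible because each group has 1 array and the labels carry no replicate numbers. Leaving out an array leaves 0 residual degrees of freedom.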

Other observations

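Among the 77 members at a mean level of 6 or more, the change was related only weakly to probe properties. Against mean level, Pearson's r across genes was 0.27 in HCT116 and 0.33 in A549, so brighter members had changes nearer 0. Against the GC content of the probe it was -0.32 and -0.13. Genes are not independent replicates and share the same arrays, so these are descriptions. Members whose probe spans at most 60 bases of the genome (50 genes) and members whose probe spans more (30 genes) had medians of -0.75 and -0.80 in A549. The 62 members outside areas of stray signal on all 4 arrays had a median of -0.79 in A549 and -0.23 in HCT116. The 18 inside such an area on any array had -0.72 and -0.26. Only 1 of them, RPS20, lay in such an area on an A549 array, so the A549 medians cannot show an effect of stray signal there.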
